A study of Homo sapiens with 10 samples.

Results

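HOX genes encode homeodomain transcription factors that lie in 4 clusters. HOXA is on chromosome 7, HOXB on 17, HOXC on 12 and HOXD on 2 (RefSeq, GRCh38.p14). Of 38 HOX genes listed for the array, 28 had a probe set that the array annotation maps to that gene alone, and each was read from its probe set with the highest mean over the 10 arrays. The 28 belong to a table of 54675 probe sets that gives 19775 genes a probe set of their own. All 10 HOXB genes, all 9 HOXC genes, 8 of 9 HOXD genes and 1 of 10 HOXA genes were among the 28. HOXA3, HOXA4, HOXA5, HOXA6, HOXA7, HOXA9, HOXA10, HOXA11, HOXA13 and HOXD3 are not analysed here.

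The arrays profile 3 human cell lines, with 1 array for each condition. THP1, a monocytic leukaemia line that the labels call macrophages, was grown in RPMI medium alone or with vitamin D3. Hke3, and HCT116, a colorectal carcinoma line, were grown in MEM alone, with vitamin D3, with THP1 cells, or with both. Hke3 was derived from HCT116 and is a single clone. In coculture the tumour and THP1 cells exchanged soluble factors but did not touch. Vitamin D3 was given for 24 h, and all media held serum. The labels of the Hke3 array with vitamin D3 conflict, since its title, description and culture field name the treatment and 1 further field reads as no treatment. Because no condition was repeated, arrays that match in all but 1 factor were paired, the 4 pairs of each factor stood in for replicates, and every p-value measures only the spread between these arrays. In bulk RNA, fewer cells with a transcript and less of it per cell cannot be told apart.

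HOX proteins give cells positional identity along the body axis. Genes at the 3' end of a cluster are switched on earlier and more anteriorly in the embryo than genes at the 5' end, and the number in each name marks the paralogue group, which runs in the same order. PBX and MEIS proteins bind DNA together with HOX proteins, MLL complexes help to keep the clusters active and Polycomb complexes help to keep them silent. In adult tissues the colon epithelium retains part of the embryonic HOX pattern, and in blood cells HOXA and HOXB genes are best known from stem and progenitor cells and from leukaemia.

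The labels were checked against markers. Of 14 myeloid markers, 12 had a probe set, and their summed log2 signal was 124.5 to 133.1 on the THP1 arrays, 64.8 to 66.6 on the Hke3 arrays and 64.8 to 66.0 on the HCT116 arrays. All 12 colon epithelial markers had one, and their sum was 69.7 to 69.9 on the THP1 arrays, 121.9 to 123.3 on the Hke3 arrays and 121.1 to 122.4 on the HCT116 arrays. The ACTB difference between 3' and 5' control probe sets, which grows as RNA is degraded, was 0.04 ± 0.08 log2 in THP1 (SD, n = 2), 0.71 ± 0.17 log2 in Hke3 (SD, n = 4) and 0.24 ± 0.06 log2 in HCT116 (SD, n = 4). For GAPDH the same difference averaged -0.11 log2 in THP1, 0.03 log2 in Hke3 and -0.10 log2 in HCT116. The ACTB control therefore moved with the cell lines, and GAPDH moved less. Their part in the line differences given below was not tested.

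Signal above 6.18 log2, the median of the whole table, on every array of a line was found for 10 of 28 HOX genes in THP1, 18 in Hke3 and 18 in HCT116. The HOXB cluster accounted for 6 of its 10 genes in THP1, 9 in Hke3 and 10 in HCT116, and the HOXC cluster for 4 of 9, 8 of 9 and 7 of 9 in the same lines. The HOXD cluster was dim throughout, with 0 of 8 genes above that level in THP1 and 1 of 8, HOXD8, in each colon cancer line. A total of 20 genes passed the filter, which asked for 1 array above 6.18 log2, and were tested. The other 8 genes, HOXA2, HOXC12, HOXD1, HOXD4, HOXD9, HOXD10, HOXD11 and HOXD12, lay between 3.88 and 6.12 log2 on all 10 arrays. Of the 20 tested genes, HOXB8, HOXB9, HOXC6, HOXC9, HOXC13, HOXD8 and HOXD13 stayed under 6.18 log2 on both THP1 arrays, and HOXD13 did so on every Hke3 array as well. Signals of different probe sets are not comparable with each other, so each gene is compared only with itself between lines and cultures.

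**Figure D1:**
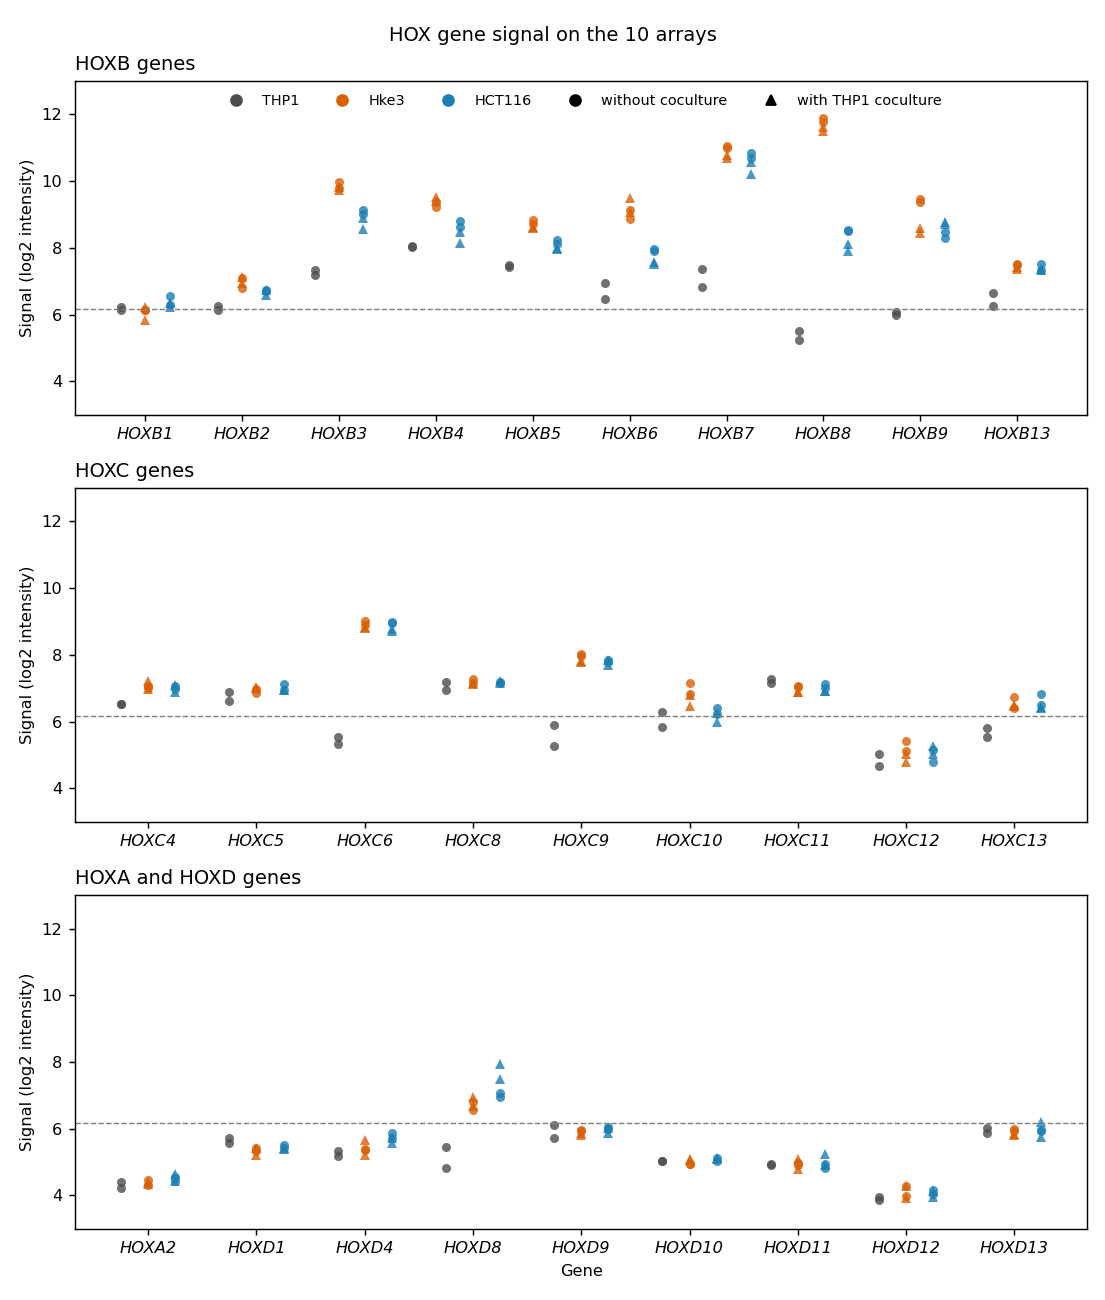
Signal of the 28 HOX genes (log2 intensity) on each array, by cluster, with THP1 in grey, Hke3 in orange and HCT116 in blue. Triangles are arrays with THP1 coculture, circles are arrays without it, and the dashed line marks 6.18 log2. HOXB2 to HOXB9 separate the THP1 arrays from the colon cancer arrays, and most HOXD genes lie under the line in all 3 cell lines.

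Of the 2 tested HOXD genes, HOXD8 was the 1 that passed between the colon cancer lines. HOXD10, its neighbour across HOXD9, was dim in all 3 cell lines and was not tested. Both promoters are shown for that contrast, since HOX promoters often hold many CG pairs, the letters that DNA methylation acts on. RefSeq promoters (250 bases before to 50 bases after the gene start) matched 11 of the 28 genes. Both sequences are on the plus strand of GRCh38.p14, with each CG pair in capitals, HOXD8 at chr2:176129455-176129754 and HOXD10 at chr2:176116528-176116827.
HOXD8: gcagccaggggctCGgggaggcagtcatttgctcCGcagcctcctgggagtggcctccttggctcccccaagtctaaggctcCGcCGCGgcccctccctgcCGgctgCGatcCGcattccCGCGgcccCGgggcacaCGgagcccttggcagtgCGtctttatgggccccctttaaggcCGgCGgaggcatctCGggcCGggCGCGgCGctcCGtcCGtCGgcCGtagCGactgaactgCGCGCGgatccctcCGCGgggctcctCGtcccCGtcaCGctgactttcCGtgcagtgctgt
HOXD10: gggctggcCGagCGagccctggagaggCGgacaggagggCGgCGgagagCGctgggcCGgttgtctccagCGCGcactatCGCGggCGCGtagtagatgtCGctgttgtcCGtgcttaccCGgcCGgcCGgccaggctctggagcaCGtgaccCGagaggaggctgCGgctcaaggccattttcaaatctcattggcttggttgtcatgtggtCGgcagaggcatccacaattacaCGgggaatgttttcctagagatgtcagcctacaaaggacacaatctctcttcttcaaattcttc
The HOXD8 window holds 34 CG pairs, and 15.6% of 35116 RefSeq promoter windows of that length hold as many. The HOXD10 window holds 23, a number reached by 35.8% of the windows, and the median window holds 14. The letters TATAAA, searched on both strands, occur in neither window and in 11.5% of all windows. The arrays measured RNA, not methylation, so these letters describe the loci only.

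Between the colon cancer lines, a run of adjacent HOXB genes was higher in Hke3 than in HCT116. Of the 20 tested HOX genes, 8 rose in Hke3 (HOXB2, HOXB3, HOXB4, HOXB5, HOXB6, HOXB7, HOXB8 and HOXC10) and 1, HOXD8, fell, at an adjusted p under 0.05 in limma. Over all 13243 genes tested, 24.8% were called higher in Hke3 and 15.7% lower. The median difference of the 20 genes was 0.09 log2, against 0.01 log2 over all genes tested, while the 10 HOXB genes had a median of 0.50 log2, the 8 tested HOXC genes 0.01 log2 and both tested HOXD genes -0.34 log2. The signals of Hke3 and HCT116 did not overlap for 8 of the 28 genes, with Hke3 higher in 7 of them, and the same was true of 25.6% of all 19775 genes.

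HOXB8, which in mouse blood progenitors can block myeloid differentiation, had the largest difference of the HOX genes. Its signal was 11.89, 11.76, 11.52 and 11.63 log2 in Hke3 alone, with vitamin D3, with THP1 and with both, against 8.52, 8.52, 7.91 and 8.13 log2 in HCT116 in the same conditions. Every Hke3 array lay far above every HCT116 array, and the 4 pairs differed by 3.25 to 3.61 log2. The fitted difference of 3.43 ± 0.08 log2 (SE, 4 pairs) is 10.8-fold, with an adjusted p of 1.97e-07 in limma, and it ranked second from the top of the 13243 genes. The other HOXB8 probe set was dimmer and gave 1.42 ± 0.08 log2, the same direction at a smaller size. On the HCT116 arrays it stayed under the filter, at 5.45 to 5.55 log2. It was tested only because Hke3 arrays were above the filter, so a rise in Hke3 was favoured and its size is approximate.

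HOXB6, expressed in the posterior embryo and in early erythroid cells, came next. It gave 9.12, 8.87, 9.07 and 9.50 log2 on the 4 Hke3 arrays, against 7.96, 7.89, 7.50 and 7.57 log2 on the 4 HCT116 arrays, here and below in the order alone, vitamin D3, THP1 and both. The groups did not overlap, and the difference was 1.41 ± 0.15 log2, or 2.66-fold (adjusted p = 0.000304, limma). A second HOXB6 probe set gave 1.12 ± 0.13 log2. With 5.38 to 6.06 log2 in HCT116, it passed the filter only through Hke3, so a rise in Hke3 was favoured. HOXB3, a hindbrain patterning gene in the mouse, gave 9.99, 9.81, 9.73 and 9.82 log2 in Hke3, against 9.13, 9.004, 8.56 and 8.90 log2 in HCT116. This again left a gap between the lines, with a difference of 0.94 ± 0.09 log2 (1.91-fold, adjusted p = 0.000195, limma). The second HOXB3 probe set disagreed, at 0.00 ± 0.06 log2, on a signal of 6.57 to 6.63 log2 in Hke3 and 6.47 to 6.66 log2 in HCT116.

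HOXB4, known for expanding blood stem cells when overexpressed, gave 9.37, 9.24, 9.40 and 9.53 log2 in Hke3, against 8.82, 8.63, 8.15 and 8.46 log2 in HCT116. Its lowest Hke3 array stood above its highest HCT116 array, and the fitted difference was 0.87 ± 0.13 log2 (adjusted p = 0.00145, limma). HOXB5 gave 8.84, 8.71, 8.60 and 8.61 log2 in Hke3, against 8.24, 8.12, 7.98 and 7.96 log2 in HCT116. This gene had the most even line difference of the called genes, between 0.59 and 0.65 log2 in the 4 pairs, and averaged 0.62 ± 0.05 log2 (adjusted p = 0.000107, limma). A second HOXB5 probe set gave 0.68 ± 0.06 log2. In RefSeq the HOXB3 gene spans HOXB4, and HOXC4, HOXC5 and HOXC6 also overlap, although each has its own probe set.

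HOXB2 and HOXB7 had the smallest called differences of this run. HOXB2, a hindbrain gene of the 3' part of the cluster, gave 7.09, 6.81, 6.94 and 7.11 log2 in Hke3, against 6.70, 6.74, 6.58 and 6.73 log2 in HCT116, a small gap of 0.30 ± 0.08 log2 without overlap (adjusted p = 0.0223, limma). It missed the threshold in 3 of the fits that left out 1 array and among the arrays without coculture (0.23 log2, adjusted p = 0.0962, limma). HOXB7, a gene studied in breast and colon tumours, gave 11.05, 10.99, 10.69 and 10.79 log2 in Hke3, against 10.85, 10.71, 10.57 and 10.22 log2 in HCT116. These ranges overlapped, but each of the 4 pairs was higher in Hke3, by 0.29 ± 0.08 log2 on average (adjusted p = 0.0175, limma), and the other HOXB7 probe sets gave 0.29 log2 each.

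The HOXB genes on either side did not pass. HOXB1, the most 3' member of the cluster, sat near the filter and differed by -0.27 ± 0.10 log2 (adjusted p = 0.0624, limma). HOXB9 differed by 0.39 ± 0.22 log2 (adjusted p = 0.195, limma), with 2 of 4 pairs higher in Hke3, and its second probe set gave -0.29 ± 0.14 log2. Its line difference turned round with coculture, as given below. HOXB13, the most 5' member and a gene of the prostate and distal colon, averaged 7.45 ± 0.07 log2 in Hke3 and 7.38 ± 0.08 log2 in HCT116 (SD, n = 4 each), a difference of 0.06 ± 0.06 log2 (adjusted p = 0.403, limma), while its second probe set gave -0.17 ± 0.10 log2. RefSeq places PRAC1 and PRAC2 between HOXB9 and HOXB13, and SKAP1 and SNX11 beyond HOXB1. SKAP1 rose by 0.32 log2 in Hke3 (adjusted p = 0.0225, limma), while SNX11 differed by 0.02 log2 and CALCOCO2, beyond HOXB13, by -0.17 log2, neither past the threshold. The locus of the microRNA MIR10A lies between HOXB4 and HOXB5, and its probe set was higher by 0.36 ± 0.10 log2 in Hke3 (adjusted p = 0.023, limma). The noncoding HOXB-AS3, of the same cluster, differed by 0.07 ± 0.07 log2 and did not pass (adjusted p = 0.454, limma). Of 5 tested noncoding genes of the clusters, 0 rose in Hke3 and 1 fell. Among 12 tested genes flanking the 4 clusters, 4 rose and 0 fell. Over all genes, 24.8% rose and 15.7% fell. SNX11, CALCOCO2 and MIR10A were picked for their place after their values were seen.

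**Figure D2:**
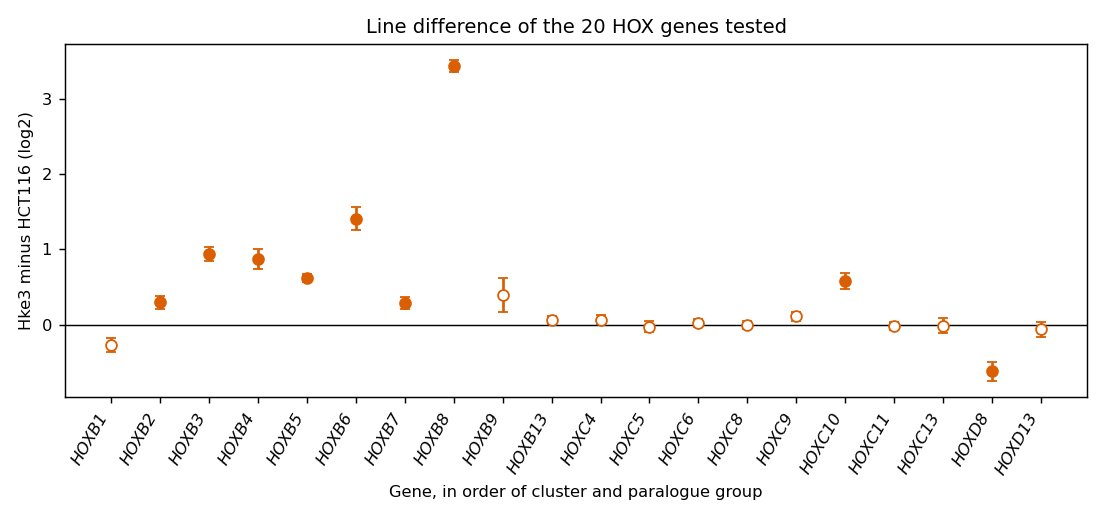
Hke3 minus HCT116 difference (log2, points) with its standard error (bars) for the 20 HOX genes tested, in order of cluster and paralogue group. Filled points passed an adjusted p of 0.05. The filled points run from HOXB2 to HOXB8, peak at HOXB8 with 3.43 log2 and otherwise include HOXC10 above 0 and HOXD8 under it.

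Outside the HOXB cluster 2 of the tested HOX genes passed between the lines. The 8 HOX genes under the filter were not tested, and their differences ran from -0.32 to 0.05 log2. HOXC10, which specifies lumbar motor neurons in the mouse, gave 7.14, 6.82, 6.80 and 6.46 log2 in Hke3, against 6.41, 6.21, 5.99 and 6.27 log2 in HCT116. The lines did not overlap, and the difference was 0.58 ± 0.10 log2 (adjusted p = 0.00299, limma), although the lowest Hke3 array was within 0.1 log2 of the highest HCT116 array. HOXD8, whose promoter is printed above, gave 6.57, 6.80, 6.68 and 6.95 log2 in Hke3, against 7.07, 6.96, 7.48 and 7.95 log2 in HCT116. Here Hke3 was lower in all 4 pairs, by between 0.16 and 1.0 log2, for a fitted -0.62 ± 0.13 log2 (adjusted p = 0.00692, limma), and the nearest arrays of the lines were almost equal. The noncoding HOXD-AS2, of the same cluster, was also lower in Hke3, at -0.35 log2 (adjusted p = 0.0042, limma).

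The other HOXC genes were close in the lines. HOXC6 averaged 8.89 ± 0.09 log2 in Hke3 and 8.86 ± 0.14 log2 in HCT116 (SD, n = 4 each), a difference of 0.03 ± 0.05 log2 (adjusted p = 0.726, limma). HOXC9 differed by 0.11 ± 0.06 log2, HOXC4 by 0.06 ± 0.07 log2 and HOXC5 by -0.02 ± 0.07 log2. For HOXC8, HOXC11 and HOXC13, the gene of hair and nail, differences were 0.00 ± 0.06, -0.01 ± 0.05 and -0.01 ± 0.10 log2, and for HOXD13, a digit patterning gene, -0.06 ± 0.10 log2. None of these passed the threshold, which does not show that the lines were equal.

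Lists of genes that work with the HOX clusters were counted beside the 24.8% of all genes called higher in Hke3 and the 15.7% called lower. Among 7 tested HOX cofactors, 4 rose in Hke3 and 0 fell, with PBX2 at 0.92 log2, PBX3 at 0.47 log2, MEIS2 at 0.41 log2 and MEIS3 at 0.20 log2. Of 15 MLL and COMPASS genes, which mostly act in setting or keeping active chromatin, 9 rose and 2 fell. KMT2A, the MLL methyltransferase itself, rose by 0.38 log2, its partner MEN1 by 0.34 log2, and the core subunit ASH2L fell by 0.31 on the log2 scale. Of 15 Polycomb genes, 6 rose and 1 fell, with JARID2 and CBX6 each 0.65 log2 higher in Hke3, and EZH1 0.43 log2 higher. The 1 that fell, EED at -0.22 log2, is named after its value was seen. Among 8 tested CDX and retinoic acid genes, which act upstream of HOX genes in the embryo, 2 rose and 1 fell, near the shares over all genes. CYP26B1, which degrades retinoic acid, rose by 1.19 log2, the receptor RXRB rose by 0.31 log2, and CDX4 fell by 0.26 on the log2 scale. The median differences were 0.20 log2 for cofactors, 0.27 log2 for MLL and COMPASS genes, 0.10 log2 for Polycomb genes and 0.08 log2 for CDX and retinoic acid genes, beside 0.01 log2 for all genes tested.

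Against the colon cancer lines, THP1 had less signal for most HOX genes that were tested, and none passed as higher. In limma, 14 of 20 genes fell in THP1 against HCT116 and 15 of 20 against Hke3, where HOXC10 was added. Of the 20, 7 were under the filter on both THP1 arrays and were tested only because a colon cancer array was above it, so a fall in THP1 was favoured for them. They include 6 of the genes that fell in each comparison (HOXB8, HOXB9, HOXC6, HOXC9, HOXC13 and HOXD8), and among the other 13 genes 8 fell against HCT116 and 9 against Hke3. Over all 13879 genes of that fit, 38.5% were called lower and 27.9% higher against HCT116, and 40.0% lower and 27.7% higher against Hke3. The 14 genes were HOXB2 to HOXB9, HOXB13, HOXC4, HOXC6, HOXC9, HOXC13 and HOXD8. The median difference of the 20 genes was -0.83 log2 against HCT116 and -1.18 log2 against Hke3, beside -0.09 and -0.07 log2 over all genes. THP1 did not overlap with the 8 colon cancer arrays for 16 of 28 HOX genes, as was the case for 48.0% of all genes. Both comparisons share the THP1 arrays, and cell line and culture medium cannot be told apart in them.

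HOXB8 gave 5.51 and 5.23 log2 in THP1 alone and with vitamin D3, far under its Hke3 and HCT116 values given above. The difference was -6.52 ± 0.12 log2 against Hke3 (adjusted p = 2.52e-10, limma) and -3.09 ± 0.12 log2 against HCT116 (adjusted p = 3.12e-08, limma). The second HOXB8 probe set gave 5.56 and 4.98 log2 in THP1, with -1.66 ± 0.16 log2 against Hke3 (adjusted p = 1.17e-05, limma). Its THP1 arrays overlapped those of HCT116, at 5.45 to 5.55 log2, and the difference of -0.24 ± 0.16 log2 did not pass (adjusted p = 0.214, limma). As both THP1 values of HOXB8 are under the filter, the size is approximate, as it is for HOXB9, HOXC6, HOXC9, HOXC13 and HOXD8. HOXB7 gave 6.82 and 7.38 log2 in THP1, above the filter on both arrays. It was 15.4-fold lower than in Hke3 (-3.95 ± 0.17 log2, adjusted p = 4.56e-08, limma) and 12.6-fold lower than in HCT116 (-3.66 ± 0.17 log2, adjusted p = 8.29e-08, limma).

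HOXC6, HOXC9 and HOXB9 passed in neither direction between the colon cancer lines but were well below both in THP1. HOXC6, a gene of the thoracic region of the embryo, gave 5.34 and 5.53 log2 in THP1, against 8.90, 9.01, 8.81 and 8.83 log2 in Hke3 and 8.98, 8.97, 8.72 and 8.77 log2 in HCT116. No array of THP1 came within 3 log2 units of a colon cancer array, and the difference was -3.54 ± 0.08 log2 against Hke3 and -3.52 ± 0.08 log2 against HCT116 (adjusted p = 6.97e-10 and 7.66e-10, limma). HOXC9 gave 5.26 and 5.89 log2 in THP1, against 7.98, 8.03, 7.81 and 7.79 log2 in Hke3 and 7.84, 7.78, 7.85 and 7.69 log2 in HCT116. It fell by 5.24-fold against Hke3 and 4.85-fold against HCT116 (adjusted p = 9.73e-07 and 1.44e-06, limma), again without overlap. HOXB9 gave 5.98 and 6.08 log2 in THP1. Its 8 colon cancer values, listed with coculture below, lay between 8.31 and 9.47 log2, and the differences were -3.07 ± 0.29 log2 against Hke3 and -2.68 ± 0.29 log2 against HCT116 (adjusted p = 1.14e-05 and 3.03e-05, limma).

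For the HOXB genes of the run, THP1 gave the lowest level of the 3 lines by the probe set that stands for each gene. HOXB3 gave 7.18 and 7.33 log2 in THP1, a difference of -2.69 log2 against Hke3 and -1.76 log2 against HCT116. HOXB6 gave 6.46 and 6.95 log2 in THP1, -2.46 log2 against Hke3 and -1.05 log2 against HCT116. For both genes no array of one line fell within the range of another, so that Hke3 stood highest, HCT116 next and THP1 lowest. The second HOXB3 probe set showed no such order, at 6.58 and 6.68 log2 in THP1 and 6.47 to 6.66 log2 on the colon cancer arrays, with 0.01 ± 0.09 log2 against either line, not past the threshold. HOXB4 gave 8.05 and 8.03 log2 in THP1, close under the lowest HCT116 array of 8.15 log2, and its difference of -0.53 ± 0.17 log2 against HCT116 (adjusted p = 0.021, limma) missed the threshold in 4 of the fits that left out 1 array. HOXB5 fell by 2.5-fold against Hke3 and 1.63-fold against HCT116, HOXB2 by 1.72-fold and 1.4-fold, and HOXB13 by 2.05-fold and 1.96-fold.

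HOXD8 gave 4.84 and 5.45 log2 in THP1, under all 8 colon cancer arrays, with -1.40 log2 against Hke3 and -2.02 log2 against HCT116. Its order therefore differed from that of the HOXB genes, with HCT116 highest and Hke3 in the middle. HOXB1, HOXC5, HOXC8, HOXC11 and HOXD13 passed in neither THP1 comparison. The closest to higher signal in THP1 was HOXC11, a limb and trunk gene, at 7.16 and 7.28 log2 in THP1 and 6.88 to 7.11 log2 on the colon cancer arrays. Its arrays did not overlap, but the differences of 0.17 ± 0.07 log2 against Hke3 and 0.16 ± 0.07 log2 against HCT116 did not pass (adjusted p = 0.0511 and 0.0704, limma).

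**Figure D3:**
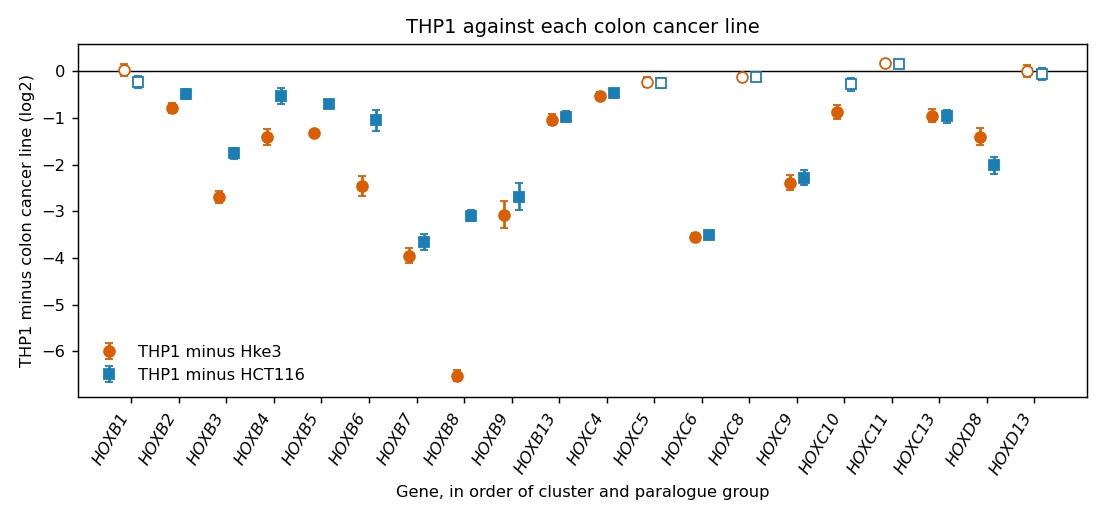
THP1 minus Hke3 (orange circles) and THP1 minus HCT116 (blue squares) differences (log2) with standard errors (bars) for the 20 HOX genes tested. Filled points passed an adjusted p of 0.05. HOXB8 against Hke3 is lowest at -6.52 log2, and no filled point lies above 0.

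Among the genes around and beside the clusters in THP1, HOX cofactors were called in both directions. Of 7 tested, 1 rose and 3 fell against Hke3, and 1 rose and 1 fell against HCT116. PBX3, a cofactor long linked to HOX genes in leukaemia, gave 12.21 and 12.27 log2 in THP1, against 8.13, 7.87, 7.87 and 8.01 log2 in Hke3 and 7.47, 7.35, 7.56 and 7.61 log2 in HCT116. It rose by 4.30 ± 0.11 log2 against Hke3 and 4.77 ± 0.11 log2 against HCT116 (adjusted p = 1.74e-09 and 1.01e-09, limma). PBX4 fell by 2.22-fold and 1.94-fold in the same comparisons. PBX2 and MEIS3 passed as lower against Hke3 only, at -0.68 and -0.29 log2. The MEIS1 probe set of highest mean stayed between 4.28 and 4.87 log2 on all 10 arrays, under the filter. In the CDX and retinoic acid list 3 of 8 genes fell and 2 rose in each comparison, near the shares over all genes. CDX2, the intestinal homeobox factor, fell by 1.95-fold against Hke3 and 1.88-fold against HCT116. RXRA rose by 1.8-fold and 1.95-fold in the same comparisons, and RXRB by 1.21-fold and 1.5-fold. The list counts stand beside 40.0% of all genes lower and 27.7% higher against Hke3, and 38.5% lower and 27.9% higher against HCT116. In the Polycomb list 10 of 15 genes fell and 1 rose against Hke3, and 9 fell and 2 rose against HCT116, with PCGF2 at -3.02 and -3.18 log2. The MLL and COMPASS list held 8 that fell and 3 that rose against Hke3, and 6 and 5 against HCT116, with the demethylase KDM6A at -4.03 and -3.58 log2. Of 6 tested noncoding genes of the clusters, 2 rose and 3 fell against Hke3, and 2 rose and 2 fell against HCT116. HOXA-AS2 fell by 1.57-fold against Hke3 and 1.54-fold against HCT116, and HOXD-AS2 by 1.49-fold and 1.89-fold. The larger rise was that of HOXA11-AS, at 7.23 and 6.75 log2 in THP1, against 5.40, 5.74, 5.21 and 5.14 log2 in Hke3 and 5.45, 5.50, 5.52 and 5.38 log2 in HCT116. HOXA11-AS rose by 1.51 log2 against Hke3 and 1.42 log2 against HCT116. All its colon cancer values were under the filter, and it was tested only because THP1 was above. A rise in THP1 was therefore favoured for HOXA11-AS, and its size is approximate. This gene lies at the 5' part of the HOXA cluster, whose protein-coding genes other than HOXA2 are not analysed here. HOXA2 itself was dim, at 4.42 and 4.22 log2 in THP1, 4.31 to 4.46 log2 in Hke3 and 4.45 to 4.65 log2 in HCT116.

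The comparison of cultures with and without THP1 asked whether signals from macrophages that share the medium alter the tumour cells. Coculture lowered 2 of the 20 tested HOX genes, HOXB8 and HOXB7, and raised 0, where 4.05% of all 13243 genes were called lower and 3.76% higher. These shares rest on single arrays, since the 537 genes called lower became 11 to 228 when 1 array was left out, with 11 without the HCT116 array with vitamin D3, and 113 with a block of the other 2 factors. The difference was under 0 for 16 of the 20, and 13 to 16 of 20 were under 0 in each of the 4 pairs. The median over the 20 was -0.13 log2, and over all genes -0.02 log2. The sum of myeloid markers was 64.8 to 66.6 log2 on the coculture arrays and 64.8 to 66.0 log2 on the colon cancer arrays without coculture, and SRGN, which THP1 expresses highly, differed by 0.69 ± 0.26 log2 (adjusted p = 0.139, limma).

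HOXB8 gave 11.52 and 11.63 log2 in Hke3 with coculture, against 11.89 and 11.76 log2 without it, and 7.91 and 8.13 log2 in HCT116 with coculture, against 8.52 and 8.52 log2 without it. Within each line both coculture arrays were below both others, and the fitted difference was -0.38 ± 0.08 log2, a 1.3-fold fall (adjusted p = 0.03, limma). HOXB7 gave 10.69 and 10.79 log2 in Hke3 with coculture, against 11.05 and 10.99 log2 without it, and 10.57 and 10.22 log2 in HCT116 with coculture, against 10.85 and 10.71 log2 without it. The arrays of each line were again apart, at -0.33 ± 0.08 log2 (adjusted p = 0.0403, limma). Neither call held in every refit. Leaving out 1 array left between 0 and 2 HOX genes past the threshold, with HOXB7 lost in 7 of 8 and HOXB8 in 6 of 8 such fits. A block of the other 2 factors left 0. The second HOXB8 probe set gave -0.05 ± 0.08 log2, while the other HOXB7 probe sets gave -0.27 ± 0.07 and -0.37 ± 0.06 log2.

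Next in p came HOXB5, at -0.19 ± 0.05 log2 (adjusted p = 0.0668, limma), HOXC6, at -0.18 ± 0.05 log2 (adjusted p = 0.0766, limma), and HOXD8, at 0.42 ± 0.13 log2 (adjusted p = 0.0903, limma). HOXB5 and HOXC6 were negative and HOXD8 was positive in all 4 pairs, and none passed. The second HOXB5 probe set did pass when each probe set was tested alone, at -0.30 ± 0.06 log2 (adjusted p = 0.0304, limma). HOXD8 gave 6.68 and 6.95 log2 in Hke3 with coculture, against 6.57 and 6.80 log2 without it, and 7.48 and 7.95 log2 in HCT116 with coculture, against 7.07 and 6.96 log2 without it. HOXD-AS2 differed by 0.19 log2 (adjusted p = 0.11, limma). Of the cofactor, MLL and COMPASS, and CDX and retinoic acid lists none passed for coculture, with medians of -0.01, -0.07 and -0.06 log2. In the Polycomb list JARID2 rose by 0.44 log2 (adjusted p = 0.014, limma) and EED fell by 0.26 on the log2 scale (adjusted p = 0.0306, limma). Both belong to the Polycomb complex that methylates histones.

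HOXB9 moved in opposite directions in the lines. HOXB9, which patterns the thoracic skeleton in the mouse, gave 8.60 and 8.43 log2 in Hke3 with coculture, against 9.47 and 9.36 log2 without it. In HCT116 it gave 8.77 and 8.72 log2 with coculture, against 8.49 and 8.31 log2 without it. Coculture arrays lay below the others in Hke3 and above them in HCT116, with no overlap in either line. The pair differences were -0.87 and -0.93 log2 in Hke3, and 0.29 and 0.42 log2 in HCT116. The interaction of line and coculture was -1.25 ± 0.10 log2 (adjusted p = 0.00246, limma, 3 residual degrees of freedom), and 2.34% of all genes were called lower in that test, 310 genes that became 61 to 158 when 1 array was left out. Its other probe set crossed in the same way, at 7.66 and 7.76 log2 in Hke3 with coculture, against 8.06 and 8.16 log2 without it, and 8.34 and 8.38 log2 in HCT116 with coculture, against 8.04 and 8.05 log2 without it. That probe set's interaction was -0.72 ± 0.10 log2 (adjusted p = 0.0162, limma).

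Without coculture HOXB9 was higher in Hke3 than in HCT116, and with coculture it was lower, so the additive line difference given above averages opposite values. HOXB9 was the 1 HOX gene of 20 past the threshold in this interaction, beside 310 lower and 247 higher of all 13243 genes. Of the 20 estimates, 12 were above 0. HOXB4, HOXB6 and HOXD8 followed, at 0.58 ± 0.17, 0.67 ± 0.20 and -0.57 ± 0.17 log2 (adjusted p = 0.108, 0.11 and 0.113, limma). For HOXB4 and HOXB6 the HCT116 pairs were both negative, whereas HOXB4 was positive in both Hke3 pairs and HOXB6 in 1 of them. PBX2 was the 1 of 7 tested cofactors called, beside the same counts over all genes, at -0.59 ± 0.12 log2 (adjusted p = 0.0416, limma). It gave 9.31 and 9.08 log2 in Hke3 with coculture, against 9.92 and 9.92 log2 without it, and 8.61 and 8.53 log2 in HCT116 with coculture, against 8.67 and 8.74 log2 without it.

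**Figure D4:**
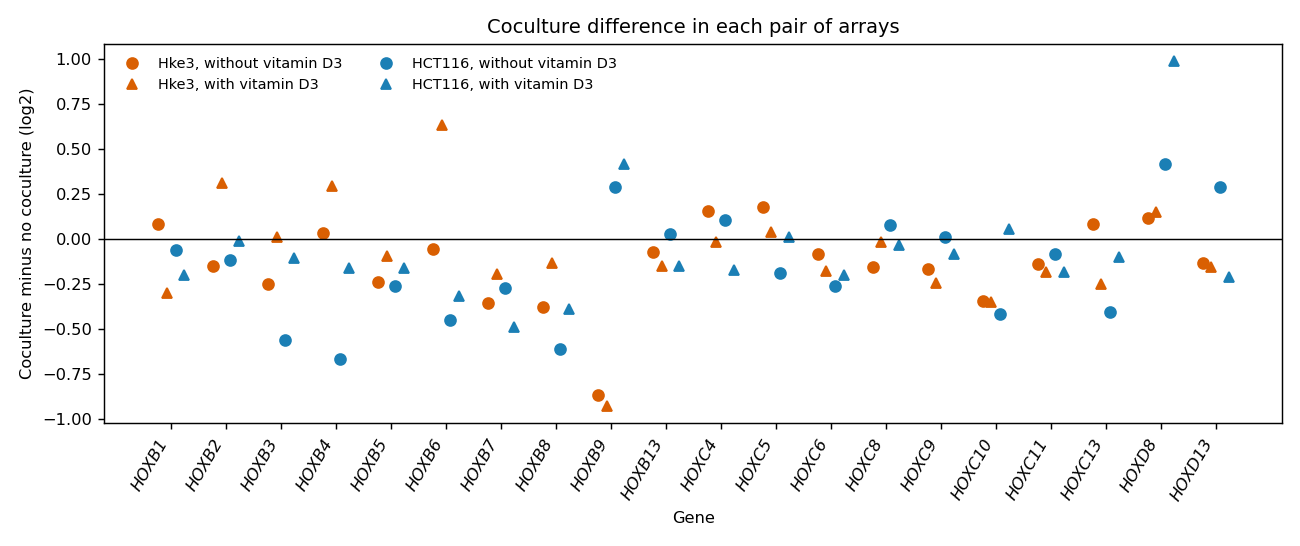
Coculture minus no coculture difference (log2) of the 20 tested HOX genes in each pair of arrays, with Hke3 in orange and HCT116 in blue, circles without and triangles with vitamin D3. HOXB9 lies near -0.9 in both Hke3 pairs and above 0 in both HCT116 pairs, and HOXB7 and HOXB8 lie under 0 in all 4.

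Vitamin D3, whose active form binds the nuclear receptor VDR, passed the threshold for 0 of 20 HOX genes and for 0.0% of all genes in limma. At an unadjusted p under 0.05 it had 0 of 20 HOX genes and 2.83% of all genes. Differences of the 20 ran from -0.14 to 0.22 log2, with a median of -0.01 log2, beside -0.01 log2 over all genes. HOXC4, HOXD8 and HOXB7 had the smallest p, at -0.12 ± 0.07, 0.22 ± 0.13 and -0.11 ± 0.08 log2 (unadjusted p = 0.117, 0.139 and 0.178, limma). HOXB8, the gene that differed most between the lines, gave 0.05 ± 0.08 log2, and its 4 pairs ran from -0.13 to 0.22 log2.

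Neither interaction with vitamin D3 called a HOX gene, and 0.0% of all genes were called in each. For line by vitamin D3, 1 of 20 HOX genes had an unadjusted p under 0.05, HOXB1 at -0.41 ± 0.15 log2 (unadjusted p = 0.0326, limma), followed by HOXC10 at -0.37 ± 0.18 log2 and HOXC13 at 0.35 ± 0.17 log2. For coculture by vitamin D3 it was HOXB3, at 0.36 ± 0.15 log2 (unadjusted p = 0.043, limma), followed by HOXC4 at -0.23 ± 0.11 log2 and HOXB2 at 0.28 ± 0.14 log2. The shares of all genes at that unadjusted level were 1.09% and 4.92%.

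In THP1, vitamin D3 was measured on 1 array against 1, so its differences carry no test. Over the 13 HOX genes above the filter on a THP1 array, the median was 0.03 log2, with 7 above 0 and 6 under it, beside -0.01 log2 over 12717 genes. HOXB7 gave 7.38 log2 with vitamin D3, against 6.82 log2 without it, HOXB6 gave 6.95 log2 with it, against 6.46 log2 without it, and HOXC10 gave 5.85 log2 with it, against 6.30 log2 without it. These were the largest differences of the 13, at 0.56, 0.49 and -0.45 log2. A second HOXB7 probe set gave 7.11 log2 with vitamin D3, against 7.51 log2 without it, which is the opposite direction. The remaining HOXB7 probe set rose like the first named, from 7.03 log2 without vitamin D3 to 7.54 log2 with it. The second HOXB6 probe set, under the filter on both THP1 arrays, differed by 0.04 log2. On the same arrays CD14, a myeloid marker named after its values were seen, gave 13.77 log2 with vitamin D3, against 8.29 log2 without it.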

How the data were processed

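RNA from 10 cell cultures was read on 1-colour Affymetrix arrays. The deposited values are log2 intensities per probe set, made by the authors with RMA through the R package affy per the submitters' processing notes. The version, and whether the 10 arrays were normalised together, are not given in the sources used here. Arrays were grouped by their titles, and no batch is named in the sources used here. Precision is limited by the number of arrays.

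The array annotation maps 41097 of 54675 probe sets to 1 gene symbol and 1801 to several. Probe sets of several genes were left out, and the 11777 that the annotation does not list were not used. A gene was tested where an array of the fit exceeded 6.18 log2, the median of all values. The 8 colon cancer arrays (13243 genes) were fitted in limma 3.58.1 (R 4.3.3) with an additive model of cell line, coculture and vitamin D3 that left 4 residual degrees of freedom, to which each interaction was added alone. All 10 arrays (13879 genes) were fitted with 3 lines, which left 5. Tests were two-sided, with Benjamini-Hochberg adjustment over all genes of a fit and a threshold of 0.05. An error after ± is the fit's standard error where SD is not written. The model was tested on simulated data with independent noise, which cannot speak to the lack of repeated conditions.

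The members, gene lists, naming rule and alternatives were chosen with earlier results of these data known. By the rule, array values are given for the 8 HOX genes with the largest called line differences, the 8 with the largest THP1 differences, called genes of the other comparisons or the 3 with the smallest p, and the 3 largest THP1 vitamin D3 differences. HOXA9 and HOXA10, also named by the rule, are not analysed here. From each other list, up to 4 genes a comparison were named, called ones first. The flanking genes beside HOXB and the untested MEIS1 were named outside this rule. Alternatives to the filter were none and one at the 75th percentile (8.14 log2). A gene's probe sets were averaged or tested one by one, and arrays were median-centred or normalised by cyclic loess. Further fits used limma's trend and robust options, a minimum change of 1.5-fold, a block of the other 2 factors, all two-way interactions, no vitamin D3 term, only arrays without coculture, and every set that lacked 1 array. Drawing used matplotlib 3.10.9 and Python 3.11.15.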

Additional observations from a re-analysis of the deposited data

Results flagged for a closer look

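HOXB9 had opposite coculture differences in the lines, and the test of that difference passed, with an interaction of -1.25 log2 (adjusted p = 0.00246, limma). Coculture minus no coculture averaged -0.90 log2 over the Hke3 pairs and 0.35 log2 over the HCT116 pairs, with 1 sign in each line. With a minimum of 1.5-fold the adjusted p was 0.0664.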

How the results depend on the processing

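The labels number no replicates, so arrays were paired by condition, and a fit with the other 2 factors as a block left 9 HOX genes past the threshold for the line, 0 for coculture and 0 for vitamin D3. The HOX genes that passed kept their direction under every alternative run, other probe sets of the gene included, except HOXB3, whose second probe set gave 0.007 log2 for THP1 against Hke3 and 0.009 log2 for THP1 against HCT116. They kept their side of the threshold in 171 of 183 values of the line difference, 282 of 286 for THP1 against Hke3, 256 of 268 for THP1 against HCT116, 16 of 39 for coculture and 17 of 18 for the HOXB9 interaction. Of the genes that did not pass, 8 of 11 for the line, HOXB9 and HOXB13 among them, and 7 of 18 for coculture changed sign under some alternative. Such genes did pass in 7 of 211 values for the line, 5 of 315 for coculture and 5 of 316 for line by coculture. Leaving out each array gave 8 to 10 HOX genes past the threshold between Hke3 and HCT116, 15 to 16 between THP1 and Hke3, 13 to 15 between THP1 and HCT116, 0 to 2 for coculture, 1 to 2 for line by coculture and 0 for each vitamin D3 term. Where that left 1 THP1 array, it was assumed to vary like the other groups. A minimum of 1.5-fold left 2 HOX genes for the line, both higher, 9 for THP1 against HCT116, 0 for coculture and 0 for line by coculture. Over all genes it left 146 higher and 62 lower in Hke3, where 3287 and 2077 were called without it. The filter at the 75th percentile left 8 HOX genes to test, of which 8 passed in each THP1 comparison and 4 for coculture. For coculture, 1 passed with no filter and 1 with cyclic loess, while with each probe set alone 3 genes had a probe set that passed (HOXB5, HOXB7 and HOXB8). For line by coculture, 3 passed with trend and robust fitting and 3 with all two-way interactions. A larger change asked for lowers such counts by construction, and for the others the cause was not tested. Cyclic loess moved the share of coculture calls that were higher to 60.7% of all genes called, against 48.1%. Signal near the median of the table limits HOXD genes, HOXA2 and the THP1 values of 7 tested genes. It also limits the HCT116 values of the second HOXB6 and HOXB8 probe sets.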
